A study of Mus musculus with 10 samples.

Results

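Spidr, Dusp16, Ipo5, Kit and Tmem255b are 5 transcripts of mouse retina that differ, with either intravitreal injection, from uninjected oxygen-induced retinopathy (OIR). They were picked by that difference, so the values in both injected groups against uninjected OIR chose them and are given below as a description, with no test. Each of the 5 is measured by 1 transcript cluster annotated to that symbol alone, out of 30063 genes so measured, and all 5 are among the 23255 genes tested after a filter on dim signal.

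RNA of whole retina (C57BL/6JJmsSlc mice) was measured on 10 arrays, with 2 in each of 5 groups. In OIR, pups breathed 75% oxygen for 5 days from postnatal day 7 and were then returned to air, and their retina was taken on day 17. The 3 OIR groups were injected into the vitreous at the end of hyperoxia with the inhibitor ISOX DUAL, injected with phosphate-buffered saline (PBS), or not injected. The other 2 groups were untreated retina of day 17 and of day 7. ISOX DUAL is known as an inhibitor of bromodomains, protein modules that bind acetylated histones. Whether the pair of arrays in a group stands for separate animals or for pools is not stated, and p-values therefore reflect array-to-array spread that may be technical. In whole tissue, fewer cells of a type and less RNA per cell cannot be told apart.

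The 5 genes act at different places in the cell. Kit encodes the cell-surface receptor for stem cell factor (the product of Kitl), a tyrosine kinase needed by melanocytes, mast cells and blood progenitors. Dusp16 encodes a dual-specificity phosphatase that switches off mitogen-activated protein (MAP) kinases, the stress kinase JNK in particular. Ipo5 encodes importin 5, which carries ribosomal proteins, histones and other cargo through nuclear pores. Spidr encodes a scaffold for homologous recombination, a route of DNA break repair. Tmem255b encodes a membrane protein of little known function.

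The table holds log2 signal per transcript cluster, with array medians of 5.55 to 5.68. The median of the negative control probes was 5.83 to 6.11 and their 95th percentile 8.31 to 8.64, depending on the array. All 5 transcripts lay above that median on 10 of 10 arrays. Kit and Spidr lay below the 95th percentile on 10 of 10, Dusp16 exceeded it on 2, Tmem255b on 3 and Ipo5 on 10. With 2 arrays a group precision is limited, and a difference between groups had a median standard error (SE) of 0.134 log2. All groups shared 1 estimate of the spread, although their spread was unequal. Across genes, the difference between the 2 arrays of a group had a standard deviation of 0.395 log2 on day 7. It was 0.341 in untreated day 17 retina, 0.325 in uninjected OIR, 0.223 with PBS and 0.156 with ISOX DUAL. An SE or p may thus be too small among uninjected groups and too large for ISOX DUAL against PBS. Rod markers, the defining genes of the main retinal cell type, were high on the arrays of day 17 (log2 of summed signal 14.2 to 14.5 over 6 of 8 listed genes).

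Kit signal was at 6.53 and 6.41 log2 with ISOX DUAL, 6.53 and 6.55 with PBS, 7.19 and 7.28 in uninjected OIR, 6.42 and 6.29 in untreated day 17 retina and 8.21 and 8.37 in untreated day 7 retina. Day 7 retina therefore stood highest, uninjected OIR second, and ISOX DUAL overlapped both PBS and untreated day 17 retina near the bottom. Dusp16 had the same order, at 7.28 and 7.28 log2 with ISOX DUAL, 7.39 and 7.23 with PBS, 7.94 and 8.06 in uninjected OIR, 7.25 and 7.24 in untreated day 17 retina and 8.48 and 8.45 in untreated day 7 retina. Its ISOX DUAL and PBS arrays overlapped each other, and the untreated day 17 mean lay 0.034 log2 below the ISOX DUAL mean.

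Ipo5 was the brightest of the 5, at 9.42 and 9.26 log2 with ISOX DUAL, 9.12 and 9.06 with PBS, 9.98 and 9.88 in uninjected OIR, 8.68 and 8.88 in untreated day 17 retina and 8.95 and 8.86 in untreated day 7 retina. Uninjected OIR was highest, the injected groups lay between it and the untreated groups, and both untreated ages overlapped. Spidr, the dimmest, was at 6.46 and 6.46 log2 with ISOX DUAL, 6.48 and 6.20 with PBS, 7.72 and 7.52 in uninjected OIR, 6.11 and 5.96 in untreated day 17 retina and 6.54 and 6.60 in untreated day 7 retina. Only the uninjected OIR arrays reached 7 log2 or more for Spidr. The ISOX DUAL and PBS arrays overlapped.

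Tmem255b ran the other way, at 8.49 and 8.44 log2 with ISOX DUAL, 8.68 and 8.60 with PBS, 7.94 and 7.88 in uninjected OIR, 7.41 and 7.87 in untreated day 17 retina and 7.01 and 7.21 in untreated day 7 retina. Both injected groups were highest and day 7 lowest. The untreated day 17 arrays were 0.47 log2 apart, and the higher of them lay 0.0035 log2 short of the lower uninjected OIR array.

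**Figure D1:**
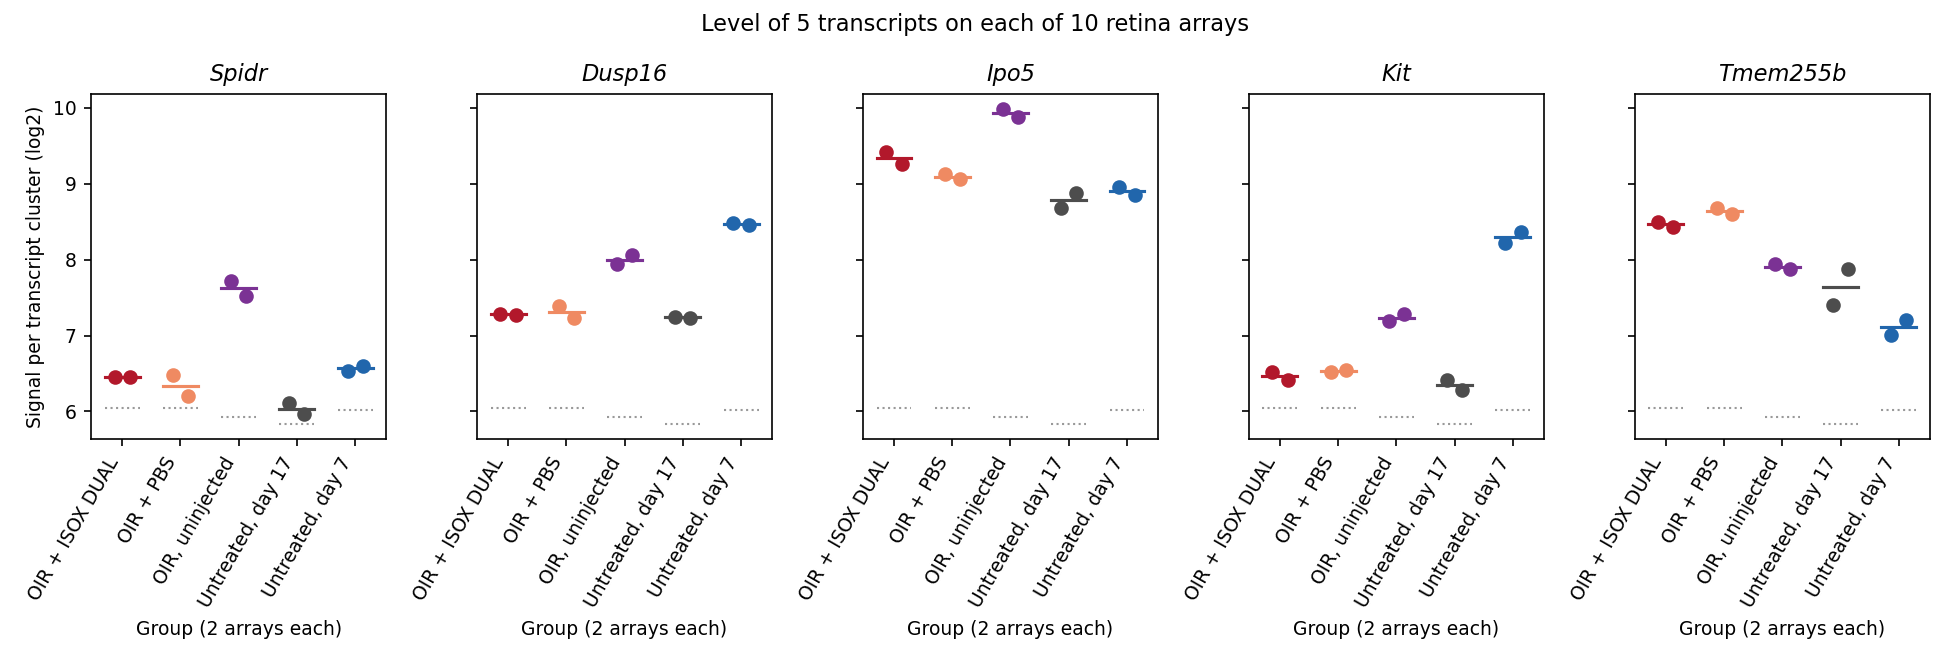
Log2 signal (vertical axis) of the 5 transcripts in each group (horizontal axis), with a point per array, a solid line at the group mean and a dotted line at the mean of that group's negative control medians. Kit and Dusp16 are highest on day 7, Ipo5 and Spidr in uninjected OIR, and Tmem255b in both injected groups.

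RefSeq promoters (GRCm38.p6, 250 bases before to 50 after a transcript start) are listed for 4 of the 5 genes and are shown as a description. The shift of these genes in both injected groups is the rule that chose them, with Tmem255b as the one of opposite direction. Capitals mark every match, on either strand, to the motifs searched: the hypoxia response element cores ACGTG and GCGTG, the AP-1 motif TGANTCA, the STAT motif TTCNNNGAA, the TATA box TATAAA and the CCAAT box CCAAT. Their positions belong to the sequences, since no build is named for the arrays. Kit is chr5:75574737-75575036 (plus strand), Dusp16 is chr6:134792579-134792878 (minus strand), Ipo5 is chr14:120910944-120911243 (plus strand) and Tmem255b is chr8:13435209-13435508 (plus strand).
Kit: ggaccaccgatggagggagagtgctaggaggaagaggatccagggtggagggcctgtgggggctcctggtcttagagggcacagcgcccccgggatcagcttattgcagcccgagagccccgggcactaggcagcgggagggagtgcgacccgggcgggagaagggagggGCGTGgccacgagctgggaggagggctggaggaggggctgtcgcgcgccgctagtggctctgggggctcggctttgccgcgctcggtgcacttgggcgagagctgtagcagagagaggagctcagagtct
Dusp16: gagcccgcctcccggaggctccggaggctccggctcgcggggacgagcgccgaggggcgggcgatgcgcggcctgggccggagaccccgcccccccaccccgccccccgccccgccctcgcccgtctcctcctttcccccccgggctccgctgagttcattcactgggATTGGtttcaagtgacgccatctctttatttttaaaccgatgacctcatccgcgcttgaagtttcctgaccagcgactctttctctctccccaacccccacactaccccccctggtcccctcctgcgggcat
Ipo5: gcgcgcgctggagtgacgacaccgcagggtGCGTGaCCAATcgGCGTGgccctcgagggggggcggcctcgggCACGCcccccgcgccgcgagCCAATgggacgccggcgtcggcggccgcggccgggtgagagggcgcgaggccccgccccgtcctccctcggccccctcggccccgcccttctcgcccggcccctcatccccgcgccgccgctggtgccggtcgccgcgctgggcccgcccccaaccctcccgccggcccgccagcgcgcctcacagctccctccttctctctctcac
Tmem255b: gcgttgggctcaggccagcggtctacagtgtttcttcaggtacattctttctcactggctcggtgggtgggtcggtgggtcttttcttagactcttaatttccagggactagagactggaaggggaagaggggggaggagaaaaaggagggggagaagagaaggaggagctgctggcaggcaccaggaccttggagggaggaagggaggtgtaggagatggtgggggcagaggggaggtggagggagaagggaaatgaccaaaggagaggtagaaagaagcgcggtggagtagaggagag

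The Kit promoter holds 1 GCGTG, whose first base is 80 bases before the start. The Ipo5 promoter holds GCGTG at 220 and 207 bases before the start, its reverse complement at 177, and CCAAT at 214 and 157. The Dusp16 promoter holds 1 CCAAT box on the opposite strand, at 82 bases, and the Tmem255b promoter has none of these letters. Of 32851 promoters of the same length, 32.4% hold GCGTG and 37.4% CCAAT on either strand, so these matches are common and describe the sequence only. The shares were 19.6% for ACGTG, 7.81% for the AP-1 motif, 8.30% for the STAT motif and 13.6% for TATAAA. GC content was 80.7% at Ipo5, 69.0% at Kit, 68.7% at Dusp16 and 57.0% at Tmem255b, where the median promoter had 52.7%. A second Kit start lies 4 bases further on with the same match, and a second Ipo5 start has 37.7% GC and 1 TATAAA.

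Against uninjected OIR, 4 of the 5 transcripts were lower and 1 was higher in both injected groups, as their choice fixed. Spidr had the largest difference, -1.16 ± 0.12 log2 with ISOX DUAL and -1.28 ± 0.12 with PBS (± SE). Kit differed by -0.76 ± 0.10 with ISOX DUAL and -0.70 ± 0.10 with PBS. Dusp16 differed by -0.72 ± 0.091 with ISOX DUAL and -0.69 ± 0.091 with PBS. The pair of differences was less even for Ipo5, at -0.59 ± 0.11 with ISOX DUAL and -0.84 ± 0.11 with PBS. Tmem255b differed by 0.55 ± 0.15 with ISOX DUAL and 0.73 ± 0.15 with PBS.

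Both contrasts share the uninjected OIR arrays, so they are not separate evidence. For all 5, the 4 injected arrays lay on 1 side of both uninjected OIR arrays, with a gap of 1.04 log2 for Spidr, 0.64 for Kit, 0.56 for Dusp16, 0.46 for Ipo5 and 0.50 for Tmem255b. Such a separation was found with injected retina lower in 9.76% and with injected retina higher in 15.0% of the 23255 genes tested. Counting each gene by the smaller of its differences, 15 genes including Spidr were as low as Spidr or lower in both groups, and the numbers were 88 for Kit, 91 for Dusp16 and 163 for Ipo5, with 120 as high as Tmem255b or higher. The limma threshold was passed by 0.00430% of all genes with ISOX DUAL (1 gene) and by 0% with PBS.

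Set beside untreated day 17 retina, uninjected OIR retina had higher Spidr (1.58 ± 0.12 log2), Ipo5 (1.15 ± 0.11), Kit (0.88 ± 0.10) and Dusp16 (0.76 ± 0.091). Tmem255b differed by 0.27 ± 0.15, with 0.033 when the first untreated array was left out and 0.50 when the second was. For each of these transcripts, Tmem255b included, the OIR arrays did not overlap the untreated day 17 ones. For Tmem255b the gap was only 0.0035 log2. The share of all genes with such a separation was not counted. These differences are descriptions, because the same OIR arrays took part in choosing the genes. Of all genes, 0.495% passed the threshold in this comparison, 0.456% higher and 0.0387% lower in OIR.

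In the injected groups the differences from untreated day 17 retina were 0.034 ± 0.091 with ISOX DUAL and 0.066 ± 0.091 with PBS for Dusp16, and 0.12 ± 0.10 with ISOX DUAL and 0.18 ± 0.10 with PBS for Kit. For Dusp16 the PBS value was -0.012 without the first PBS array and 0.14 without the second. For Kit the ISOX DUAL value was 0.18 when the first untreated array was left out and 0.051 when the second was. Spidr stood 0.42 ± 0.12 log2 above untreated retina with ISOX DUAL and 0.30 ± 0.12 with PBS. Leaving out the first PBS array gave 0.16 for Spidr. Ipo5 stood 0.56 ± 0.11 above with ISOX DUAL and 0.31 ± 0.11 with PBS, and Tmem255b 0.82 ± 0.15 with ISOX DUAL and 1.00 ± 0.15 with PBS. Of all genes, 0.0172% passed in ISOX DUAL retina against untreated day 17 retina (0.00860% higher and 0.00860% lower) and 0% in PBS retina. The 4 transcripts that were high in uninjected OIR lay nearer the untreated level after either injection, whereas Tmem255b lay further from it. Their choice favours this pattern, since they were picked as shifted from the same uninjected OIR arrays.

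Endothelial markers gave a mixed picture over these groups. Their log2 summed signal over 10 of 11 listed genes was 11.04 to 11.05 with ISOX DUAL, 11.01 to 11.03 with PBS, 11.08 to 11.11 in uninjected OIR and 10.78 to 10.79 in untreated day 17 retina. Of the 10 genes, 3 with ISOX DUAL and 4 with PBS had a higher mean than in uninjected OIR, and 9 had a higher mean in uninjected OIR than in untreated day 17 retina. Tek, an angiopoietin receptor gene, averaged 6.34 log2 with ISOX DUAL, 6.34 with PBS, 5.92 in uninjected OIR and 6.31 in untreated day 17 retina. Among these day 17 groups it was lowest in uninjected OIR, but untreated day 7 retina averaged lower still, at 5.74. Others on the list went the other way. Eng averaged 7.20 with ISOX DUAL, 7.34 with PBS, 8.07 in uninjected OIR and 7.23 in untreated day 17 retina. For Cdh5 these means were 7.34, 7.56, 7.96 and 7.15 in the same order. Of 6 Müller glia markers, 4 had a higher mean than in uninjected OIR with either injection. Sox9, not among those 4, differed by -0.75 ± 0.11 log2 with ISOX DUAL and -0.73 ± 0.11 with PBS, neither past the threshold. In uninjected OIR against untreated day 17 retina, Sox9 was the 1 of 6 that passed (0.91 ± 0.11, limma adjusted p = 0.0234), beside 0.495% of all genes. Lens markers (18 of 19 listed genes) were at 10.87 to 13.07 with ISOX DUAL, 10.44 to 10.77 with PBS and 10.24 to 10.28 in uninjected OIR, and 17 of 18 had a higher mean than in uninjected OIR with either injection, 0 of them past the threshold. The part of these lists in the 5 differences was not tested. All 7 mast cell markers, among them Cpa3 and Ms4a2, lay below the negative control median on 10 of 10 arrays, as did Tyr, Mlana and Best1 of the pigment list. The summed pigment cell and pigment epithelium signal over 10 listed genes was 9.48 to 9.95 with ISOX DUAL, 9.69 to 9.90 with PBS, 9.53 to 10.25 in uninjected OIR and 9.98 to 10.67 in untreated day 17 retina.

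Whether the injected compound mattered beyond the injection was addressed by ISOX DUAL against PBS. This contrast was not the one that chose the genes, but it uses the same injected arrays. Choosing genes for which both injected groups differ from uninjected OIR can favour genes alike in both, so these values are not independent of the choice. None of the 5 transcripts passed, each at an adjusted p of 1.00 (limma over 23255 genes, of which 0% passed and 237 had an unadjusted p under 0.05). Dusp16 differed by -0.032 log2 (95% interval -0.24 to 0.18) and Kit by -0.068 (-0.30 to 0.16). The interval for Spidr was -0.17 to 0.40 around 0.12, with ISOX DUAL arrays at the same 6.46 and PBS arrays 0.28 log2 apart. Without the second PBS array the Spidr difference was -0.024, and without the first PBS array that of Dusp16 was 0.047. The Kit difference was -0.13 without the first ISOX DUAL array and -0.010 without the second.

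Ipo5 and Tmem255b were the members whose ISOX DUAL and PBS arrays did not overlap, but separation of 2 arrays from 2 is easily met. Its share over all genes was not counted, so it does not set these members apart. Ipo5 was higher with ISOX DUAL by 0.25 log2 (95% interval 0.00096 to 0.50), with an unadjusted p of 0.0493 in the limma fit across all genes, and the lowest ISOX DUAL array lay 0.14 above the highest PBS array. Tmem255b differed by -0.18 log2 (-0.53 to 0.18), with 0.11 between the groups. A p that misses the threshold does not show that the compound and PBS acted alike, and differences of the size of these intervals could have been missed.

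**Figure D2:**
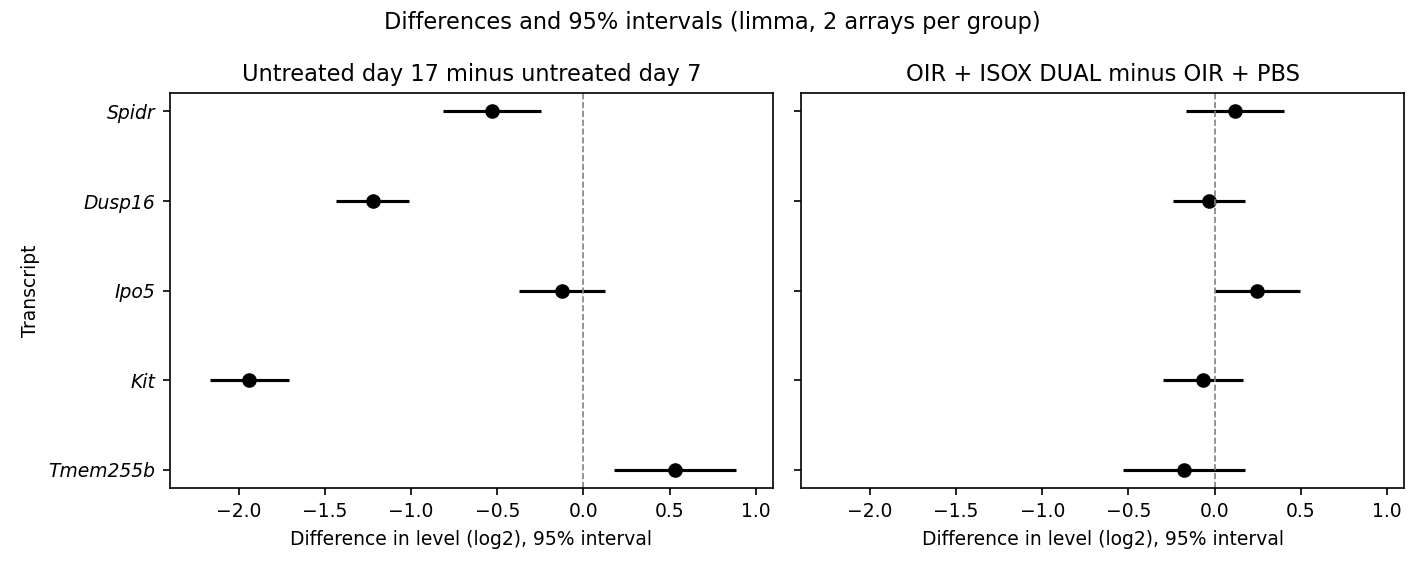
Difference in log2 level (horizontal axis) of the 5 transcripts in untreated day 17 minus day 7 retina on the left and in ISOX DUAL minus PBS on the right, with points for the estimate and lines for its 95% interval. Kit and Dusp16 lie far left of 0 between the ages, at -1.94 and -1.22, and all intervals on the right except that of Ipo5 include 0.

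Untreated day 17 retina against untreated day 7 retina compares group means from arrays that had no part in choosing the genes, although the spread behind each p is estimated over all 10 arrays. Of the 5, 3 passed the threshold, all lower on day 17, where 5.29% of all genes passed as lower, 5.26% as higher and 10.6% in either direction. Kit fell 3.84-fold (log2 difference -1.94 ± 0.10, limma adjusted p = 8.35e-05) and Dusp16 fell 2.34-fold (-1.22 ± 0.091, limma adjusted p = 0.000390). The highest day 17 array lay 1.80 log2 below the lowest day 7 array for Kit and 1.20 below it for Dusp16. Kit signal on day 17 (6.42 and 6.29 log2) was not far above the negative control medians of those arrays (5.83 and 5.84). The size of its fold is therefore uncertain. Both calls held in every alternative fit run, including the omission of each array in turn, with limma adjusted p of at most 0.0302 for Dusp16 and 0.0134 for Kit, both from the fit of only the 4 arrays compared.

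Spidr signal on day 17 (6.11 and 5.96 log2) was close to the negative control medians of those arrays (5.83 and 5.84), so its fold is uncertain in size. Spidr fell 1.44-fold (-0.53 ± 0.12, limma adjusted p = 0.0320), and this call is weak. It was lost without either day 7 array (adjusted p = 0.0743 without the first and 0.118 without the second), without either day 17 array (0.0643 and 0.108) and without either ISOX DUAL array (0.0730), which enters through the shared estimate of the spread. It was also lost with array weights (0.171) and with only the 4 arrays compared (0.197). Ipo5 differed by -0.13 ± 0.11 log2 and did not pass (adjusted p = 0.581), with -0.027 when the first day 17 array was left out and -0.22 when the second was. Tmem255b had a higher value on day 17 by 0.53 ± 0.15 log2 without passing (adjusted p = 0.0689), and it passed without the first day 17 array (0.77 log2, adjusted p = 0.0155) and with quantile normalization (adjusted p = 0.0491). Without the second day 17 array the Tmem255b difference was 0.30 log2 (limma adjusted p = 0.177). Rod markers differ strongly between these ages, with log2 summed signal of 14.4 to 14.5 on day 17 and 11.8 to 12.6 on day 7. All 6 had a higher mean on day 17, and 5 of the 6 passed the threshold as higher, where 5.26% of all genes did. The part of this shift in cell makeup in the 5 differences was not tested.

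Genes of the same pathways or families were counted beside the share of all genes called. In the contrasts with uninjected OIR none of the lists had a call, where 0.00430% of all genes passed with ISOX DUAL and 0% with PBS, so those counts do not set the lists apart. Between the ages the share of all genes was 10.6%. Among 14 tested genes of homologous recombination, the setting of Spidr, the list median was -0.039 log2 for ISOX DUAL minus uninjected OIR and -0.064 for PBS minus uninjected OIR. Over all genes tested these medians were 0.024 for ISOX DUAL and 0.0083 for PBS. Between the ages 2 of the 14, Fignl1 and Bard1, passed as lower on day 17, but Fignl1 lay below the negative control median on 10 of 10 arrays and Bard1 on 9 of 10, so no size is given. FIGNL1 is a known partner of SPIDR, and BARD1 is a ubiquitin ligase subunit in the same repair route.

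Of the 9 other MAP kinase phosphatase genes, relatives of Dusp16, 0 passed between the ages, where 10.6% of all genes did, and 0 passed in the other comparisons, where at most 0.495% of all genes did. The list median relative to uninjected OIR was -0.062 log2 with ISOX DUAL and -0.17 with PBS. Dusp6, encoding a phosphatase of the MAP kinase ERK, differed by -0.60 ± 0.15 with ISOX DUAL (limma adjusted p = 0.734) and -0.47 ± 0.15 with PBS (0.966). Dusp1, an immediate-early phosphatase gene, was at 7.10 and 7.03 log2 with ISOX DUAL, 7.14 and 7.31 with PBS and 8.78 and 7.37 in uninjected OIR. The first uninjected OIR array stood apart from the other 5. Untreated retina had Dusp1 at 8.13 and 7.46 log2 on day 17 and at 7.80 and 6.95 on day 7. The first array was thus the higher one in every uninjected group. Of 13 JNK and p38 cascade genes, Mapk11, a p38 kinase gene, was the 1 to pass, rising between the ages by 0.48 ± 0.10.

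For 25 importin, exportin and Ran genes, the list median relative to uninjected OIR was 0.084 log2 with ISOX DUAL and 0.019 with PBS. Between the ages 1 of the 25 passed the threshold as higher on day 17 and 3 as lower. Of all genes, 5.26% passed as higher and 5.29% as lower. Counted without the threshold, 4 of the 25 had a higher mean on day 17, with a list median of -0.11 log2. Kpna2, an importin alpha gene, rose by 0.81 ± 0.18. The 3 that passed as lower were the importin alpha gene Kpna3 (-0.83 ± 0.17), the transportin gene Tnpo3 (-0.53 ± 0.087) and Kpnb1 (-0.44 ± 0.090), which encodes importin beta. Ipo5 itself did not pass between the ages.

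Kitl, which encodes the ligand of KIT, was at 6.38 and 6.04 log2 with ISOX DUAL, 6.37 and 6.42 with PBS, 7.03 and 6.80 in uninjected OIR, 6.86 and 6.48 in untreated day 17 retina and 6.78 and 6.56 in untreated day 7 retina. All 4 injected arrays lay below the other 6. The share of all genes with this split was not counted, but 9.76% had all 4 injected arrays below both uninjected OIR arrays. The second ISOX DUAL array, at 6.04 log2 for Kitl, lay below its negative control median of 6.07. The difference from uninjected OIR was -0.70 ± 0.17 with ISOX DUAL (limma adjusted p = 0.654) and -0.52 ± 0.17 with PBS (0.966), and neither passed. Between the ages Kitl differed by -0.0029 ± 0.17. Of 15 tested genes of KIT ligand, related receptors and signalling, 3 passed between the ages, beside 10.6% of all genes. Pik3r1, encoding a regulatory subunit of PI3 kinase, fell on day 17 (-1.53 ± 0.12), as did the adaptor gene Gab2 (-0.43 ± 0.11), and the pericyte receptor gene Pdgfrb rose by 0.73 (± 0.15). Tmem255a, the paralogue of Tmem255b, rose on day 17 by 0.71 ± 0.17 (limma adjusted p = 0.0410) and differed from uninjected OIR by -0.31 ± 0.17 with ISOX DUAL and -0.28 ± 0.17 with PBS, opposite in sign to Tmem255b and not past the threshold.

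**Figure D3:**
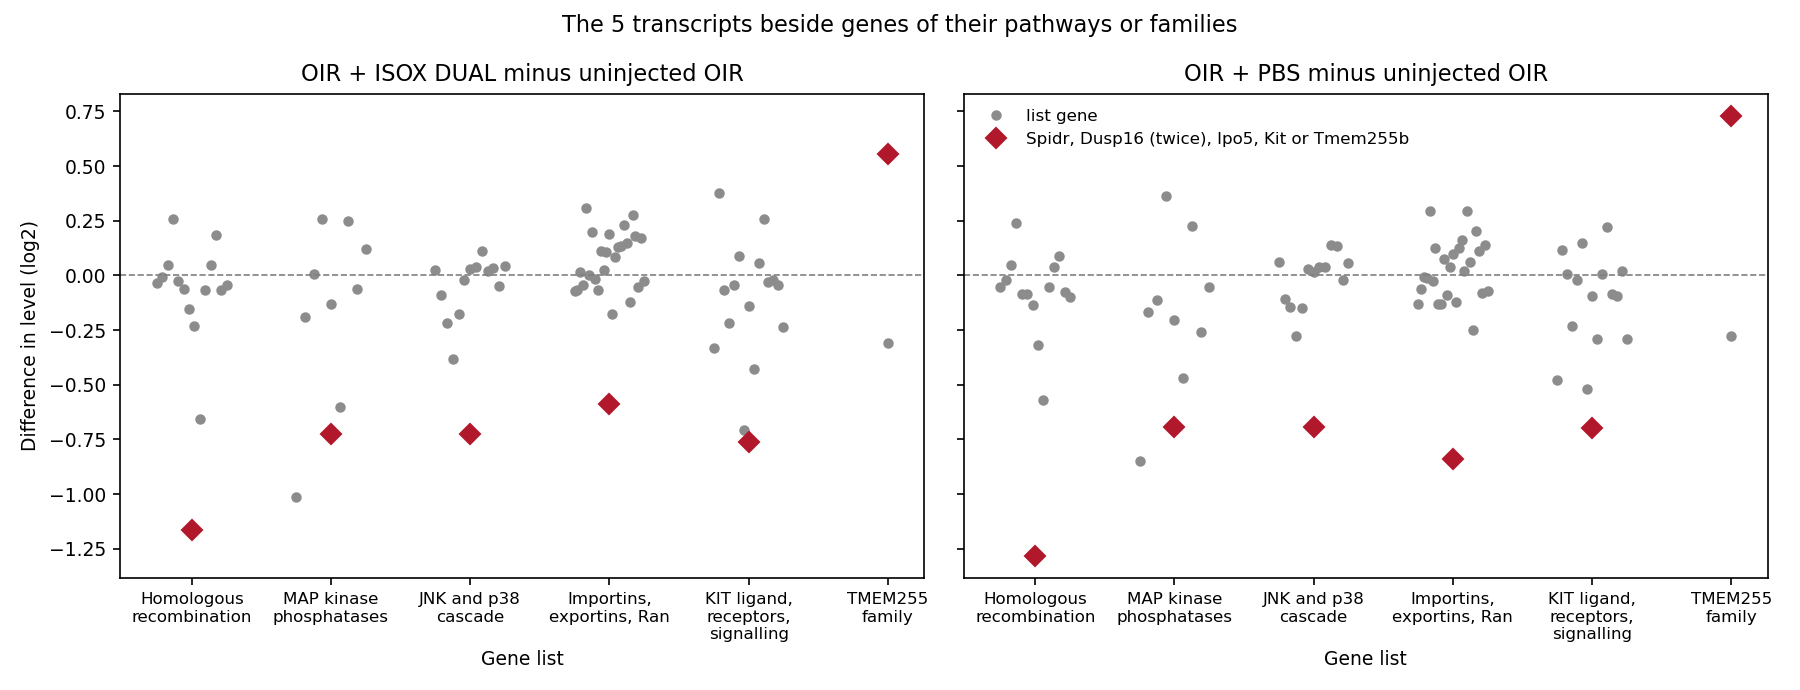
Log2 difference (vertical axis) of ISOX DUAL from uninjected OIR on the left and of PBS from uninjected OIR on the right, for genes of 6 lists (grey points) and the transcript that each list goes with (red diamonds). The diamonds were chosen for these differences, and 0 of the grey points passed the limma threshold.

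The closest profiles were found among 16159 other named genes by the root mean square difference of mean-centred log2 values over the 10 arrays, where 0 would be an identical course. The 5 genes fell into separate courses: Dusp16 and Kit were 0.27 log2 apart, Spidr and Ipo5 0.26 apart, and the other pairs 0.51 to 1.20. The nearest genes to Ipo5 were Egln1 (0.10), which encodes a prolyl hydroxylase that senses oxygen, Plat (0.10), tissue plasminogen activator, and Gys1 (0.11), muscle glycogen synthase. Those nearest to Spidr were Nox4 (0.18), an NADPH oxidase gene that lay below the negative control median on 10 of 10 arrays, Angpt2 (0.20), encoding angiopoietin 2, and Apold1 (0.22), which lay below it on 6 arrays.

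Dusp16 was nearest to Baz1a (0.15), a chromatin remodelling gene below that median on 9 arrays, Nxph4 (0.17) and the cadherin gene Fat1 (0.17). Kit was nearest to Tpx2 (0.20) and Prc1 (0.26), genes of the mitotic spindle, and to St8sia4 (0.24), a polysialyltransferase gene, which lay below the median on 7, 8 and 9 arrays in that order. Tmem255b was nearest to Rhot2 (0.20), a mitochondrial GTPase gene, the small nucleolar RNA gene Snora30 (0.20) and Bicdl1 (0.21). These neighbours were selected from many genes over 10 arrays that share 5 groups, so the distances are a description.

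**Figure D4:**
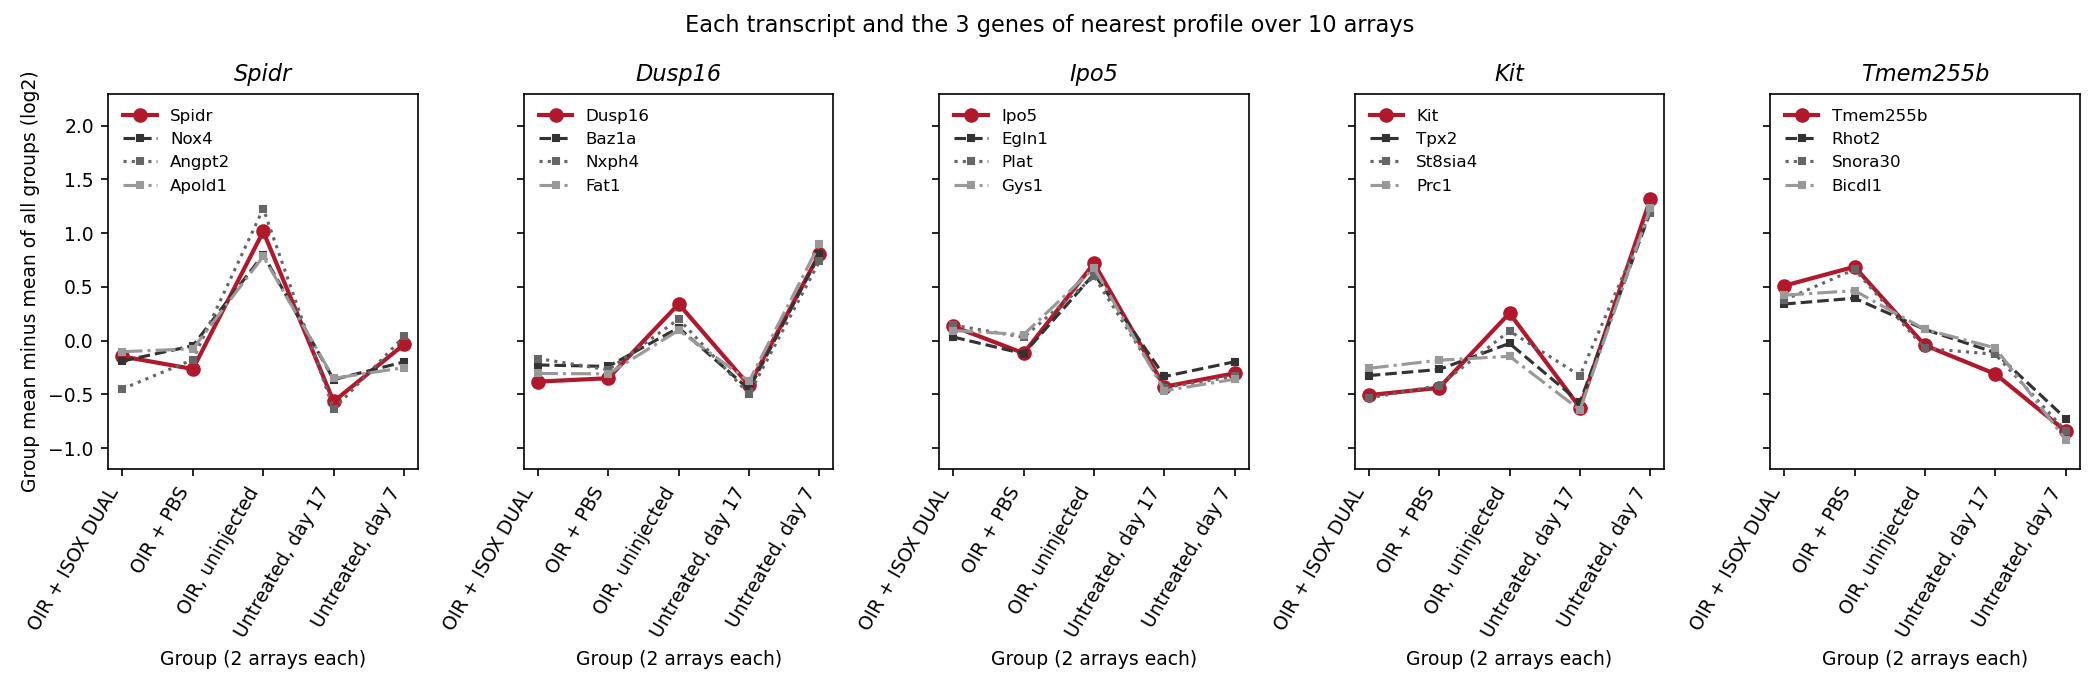
Group mean minus the mean of all groups (log2, vertical axis) for each transcript (red) and the 3 genes of nearest profile (grey and black) in the 5 groups (horizontal axis). Uninjected OIR forms the peak for Spidr and Ipo5, day 7 forms the peak for Dusp16 and Kit, and both injected groups are highest for Tmem255b.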

How the data were processed

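The deposited table holds the authors' log2 signal per transcript cluster, with 72688 rows and 10 arrays. Per the labels' protocols, total RNA was extracted with Trizol and biotinylated with the Affymetrix WT Terminal Labeling Kit. For background correction, normalization and build, the answer is not given in the sources used here. The log2 scale was read from the values. After 6732 control rows were removed, 30604 transcript clusters had 1 symbol in the platform annotation, updated through RefSeq genes (GRCm38.p6). A gene took its cluster of highest mean and was tested if at least 2 arrays exceeded their 30th percentile. All 5 groups were fitted together with limma 3.58.1 in R 4.3.3 (lmFit, eBayes, 5 residual and 2.76 prior degrees of freedom), and p-values were adjusted by Benjamini-Hochberg over 23255 genes at 0.05. The steps were tested on simulated data. The members and lists were chosen with earlier results of these data known. Named genes are the members, their 3 nearest profiles, and list genes past the threshold or, failing that, of smallest p. Dusp1, Eng, Cdh5 and Sox9 were named after their values were seen. Groups follow the titles.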

Additional observations from a re-analysis of the deposited data

How the results depend on the processing

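The 5 members gave 190 alternative values in the 2 tested comparisons, of which 177 kept their direction and side of the threshold, and 475 in the 5 described comparisons, of which 455 moved by less than the spread between arrays. Most of the 475 could not move, so that count says little about stability. Each member has 1 cluster, so averaging clusters changed none of their differences. Neither could the filters, the trend, the fit of 4 arrays, a replicate block or leaving out an array outside the comparison. Only quantile normalization, array weights and leaving out a compared array could change a difference. Leaving out single arrays, Spidr ranged from -0.024 to 0.26 log2 and Dusp16 from -0.11 to 0.047 for ISOX DUAL against PBS, and Dusp16 from -0.012 to 0.14 for PBS against untreated day 17. Numbers of genes called changed more, and the cause was not tested. For day 17 against day 7 there were 2454, or 1111 with array weights, 345 with only the 4 arrays compared and 1500 to 2227 without single arrays. For uninjected OIR against untreated retina there were 115, or 12 with array weights, 0 with only those 4 arrays and 0 to 84 without single arrays. For ISOX DUAL against uninjected OIR there was 1, or 3 with array weights, 0 with 4 arrays and 0 to 7 without single arrays. For ISOX DUAL against untreated day 17 there were 4, or 9 with trend, 2 with quantile normalization, 0 with array weights, 0 with 4 arrays and 0 to 6 without single arrays. ISOX DUAL against PBS gave 0, and 0 to 1 without single arrays. PBS against uninjected OIR and against untreated retina gave 0 in each omission.

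Array numbers do not pair the samples across all 5 groups: differences between the arrays of a group correlated across genes at 0.583 to 0.809 among uninjected groups and 0.399 between injected groups, but at -0.406 to -0.0567 between the kinds. With the replicate block the counts were 5 for PBS against uninjected OIR, 2 for PBS and 2 for ISOX DUAL against untreated day 17, and within 1.5 times elsewhere. With numbers of the injected groups crossed, chosen after seeing the data, they were 215 for uninjected OIR against untreated retina, 4 for PBS and 5 for ISOX DUAL against uninjected OIR, and 43 for PBS and 53 for ISOX DUAL against untreated day 17. Tmem255b passed between the ages with the crossed block (adjusted p = 0.0299).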
